A study of Caenorhabditis elegans with 2 samples.

Results

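The 6 Hox genes of Caenorhabditis elegans (ceh-13, lin-39, mab-5, egl-5, php-3 and nob-1) and 2 genes for Hox cofactors (ceh-20 and unc-62) were examined in a map of TBX-2 binding. These 8 genes, out of 19985 annotated protein-coding genes, were chosen by name, not by a cut on their values, though with earlier results of these data known. The assay was ChIP-seq, the sequencing of chromatin fragments pulled down by an antibody, on whole L3 hermaphrodites of strain OP159 collected 48 h after synchronization by starvation as L1 larvae. The genotype was unc-119(ed3) III; wgIs159, and both replicates carried it: the line stably expresses the T-box transcription factor TBX-2 fused at its C-terminus to GFP and FLAG, the antibody was against GFP, and the genotype lists no change of the worm's own tbx-2. The 2 biological replicates form 1 group with no second condition and no control library analysed here, so no difference between conditions was tested, and TBX-2 could be read only as an average over all cells of the animal.

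Hox genes encode homeodomain transcription factors that give cells along the head-to-tail axis their regional identity. In C. elegans, ceh-13 is the labial-class gene of the anterior, lin-39 acts in the midbody, mab-5 in the posterior part of it and behind, and egl-5, php-3 and nob-1 are the Abdominal-B-like genes of the posterior. CEH-20, a PBC-class homeodomain protein related to fly Extradenticle, and UNC-62, a MEIS-class protein related to fly Homothorax, bind DNA together with Hox proteins. T-box factors such as TBX-2 bind sites with a GGTGTG core, and TBX-2 is needed for pharyngeal muscle development.

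Both cofactor genes had a peak on the authors' thresholded list for genome build ce11 in or within 5000 bp of the gene. None of the 6 Hox genes did. The authors named this list as thresholded on the irreproducible discovery rate, which scores how well ranks are repeated in the replicates. Its 1631 peaks were the 1631 strongest entries of the pooled replicates, and its lowest signal value was 91.0. Membership was thus the same as a cut on pooled signal, and a listed peak need not rank as high in each replicate. The signal value is the authors' peak caller's own score for an entry and has no unit here. Over all protein-coding genes, 17.7% had such a summit in the same window, so 2 of 8 is close to the general share, and no test was made on the members. Below the threshold all 8 genes had at least 1 entry in the ranked list of the pooled replicates, which held 30000 entries, background included. Of all protein-coding genes, 74.2% had one. Across the 8 windows there were 44 distinct entries, 24 at Hox genes and 20 at cofactor genes, and 1 entry was counted for both php-3 and nob-1, whose windows overlap. Read depth was unknown, because the lists hold no counts.

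The strongest of these entries was inside unc-62. The gene lies on the plus strand at V 4497461 to 4511449 on build ce11, and its peak ran from 4507836 to 4508255 with the summit at 4508046. Its signal value was 84.0 in replicate 1 and 67.6 in replicate 2, and 147 in the pooled list. These values ranked 723 of 28366 entries in replicate 1, 811 of 30000 in replicate 2 and 748 in the pooled list, so the site stood at about the same place in both replicates. In all 9.10% of protein-coding genes had a pooled entry of that rank or better in their window. The summit was 10585 bp downstream of the gene's 5′ end. It lay in an intron of 17 of the 18 annotated transcripts, which spans 4505906 to 4509878, and in the long first exon of the remaining transcript, 842 bp from the start of that transcript. Because this exon is annotated as untranslated there, only 29 bases around a sequence match near the summit are shown, from chrV:4507993-4508021 (ce11, plus strand), with the match to TGATNNAT, the form bound by Hox proteins with a PBC partner, in capitals.
unc-62: agccttggcaaTGATGGATcgccgcagct
The match was centred 38 bp before the summit. The 100 bp on either side of the summit also held GAGAGA, centred 57 and 74 bp before it and outside the bases shown, and held no GGTGTG.

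In the pooled list the unc-62 window was the densest of the 8, with 15 entries over 24.0 kb, or 6.25 per 10 kb. In the replicates ceh-13 was denser: unc-62 had 14 entries in replicate 1 and 16 in replicate 2, or 5.84 and 6.67 per 10 kb, and ceh-13 had 8 and 9, or 6.46 and 7.27 per 10 kb. In the pooled list only 1.85% of protein-coding genes had as many entries in their window as unc-62. The median over all of them was 3 entries, in a shorter window of 12 kb. Apart from its length, the count was not adjusted for any trait of the window. Apart from the peak, the pooled unc-62 entries had signal values from 16.0 to 46.5. Of the 15 summits, 8 lay in a promoter window of the gene, which ran from 1000 bp before to 200 bp after each of its transcript starts, and 6 lay within 100 bp of such a start. The 18 transcripts have 15 distinct starts, and their promoter windows cover 36.1% of the unc-62 window. The entry next in strength to the peak, with its summit at 4506617, had a signal value of 25.9 in replicate 1, 21.7 in replicate 2 and 46.5 in the pooled list, where it ranked 4981. It lay in the same intron, 587 bp upstream of a transcript start. Both upstream entries, 3734 and 2154 bp before the gene, were found within 100 bp in replicate 2 and had no summit that close in replicate 1.

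The peak at ceh-20 was in the promoter and only just on the thresholded list. The gene lies on the plus strand at III 6979884 to 6981785, and the peak ran from 6978923 to 6979342 with its highest point 751 bp before the transcript start. The signal value was 54.4 in replicate 1, 35.5 in replicate 2 and 93.9 in the pooled list, against the lowest thresholded value of 91.0. It ranked 1512 in replicate 1 and 1558 in the pooled list. In replicate 2 it ranked 2539, outside the strongest 1631 entries of that replicate. Of protein-coding genes, 17.2% had a pooled entry of that rank or better. The nearest protein-coding transcript start was that of ceh-20 itself. The sequence reaching 100 bp to either side of the summit, chrIII:6979033-6979233 (ce11, plus strand), is shown because this is the single thresholded promoter peak of the 8 genes. It held none of the 5 sequences searched, so no letters are in capitals.
ceh-20: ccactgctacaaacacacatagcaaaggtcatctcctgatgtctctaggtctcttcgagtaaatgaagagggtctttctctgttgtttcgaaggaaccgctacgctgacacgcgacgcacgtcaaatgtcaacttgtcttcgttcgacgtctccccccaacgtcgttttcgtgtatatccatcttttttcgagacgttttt
The other 4 entries of the ceh-20 window were weaker, from 18.9 to 35.9. One, 16 bp before the transcript start, had 17.5 in replicate 1, 19.8 in the pooled list and no summit within 100 bp in replicate 2. Another, 2177 bp downstream of that start and 20 bp upstream of the neighbouring gene F31E3.6, was found in both replicates, with 27.8 and 18.4.

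**Figure D1:**
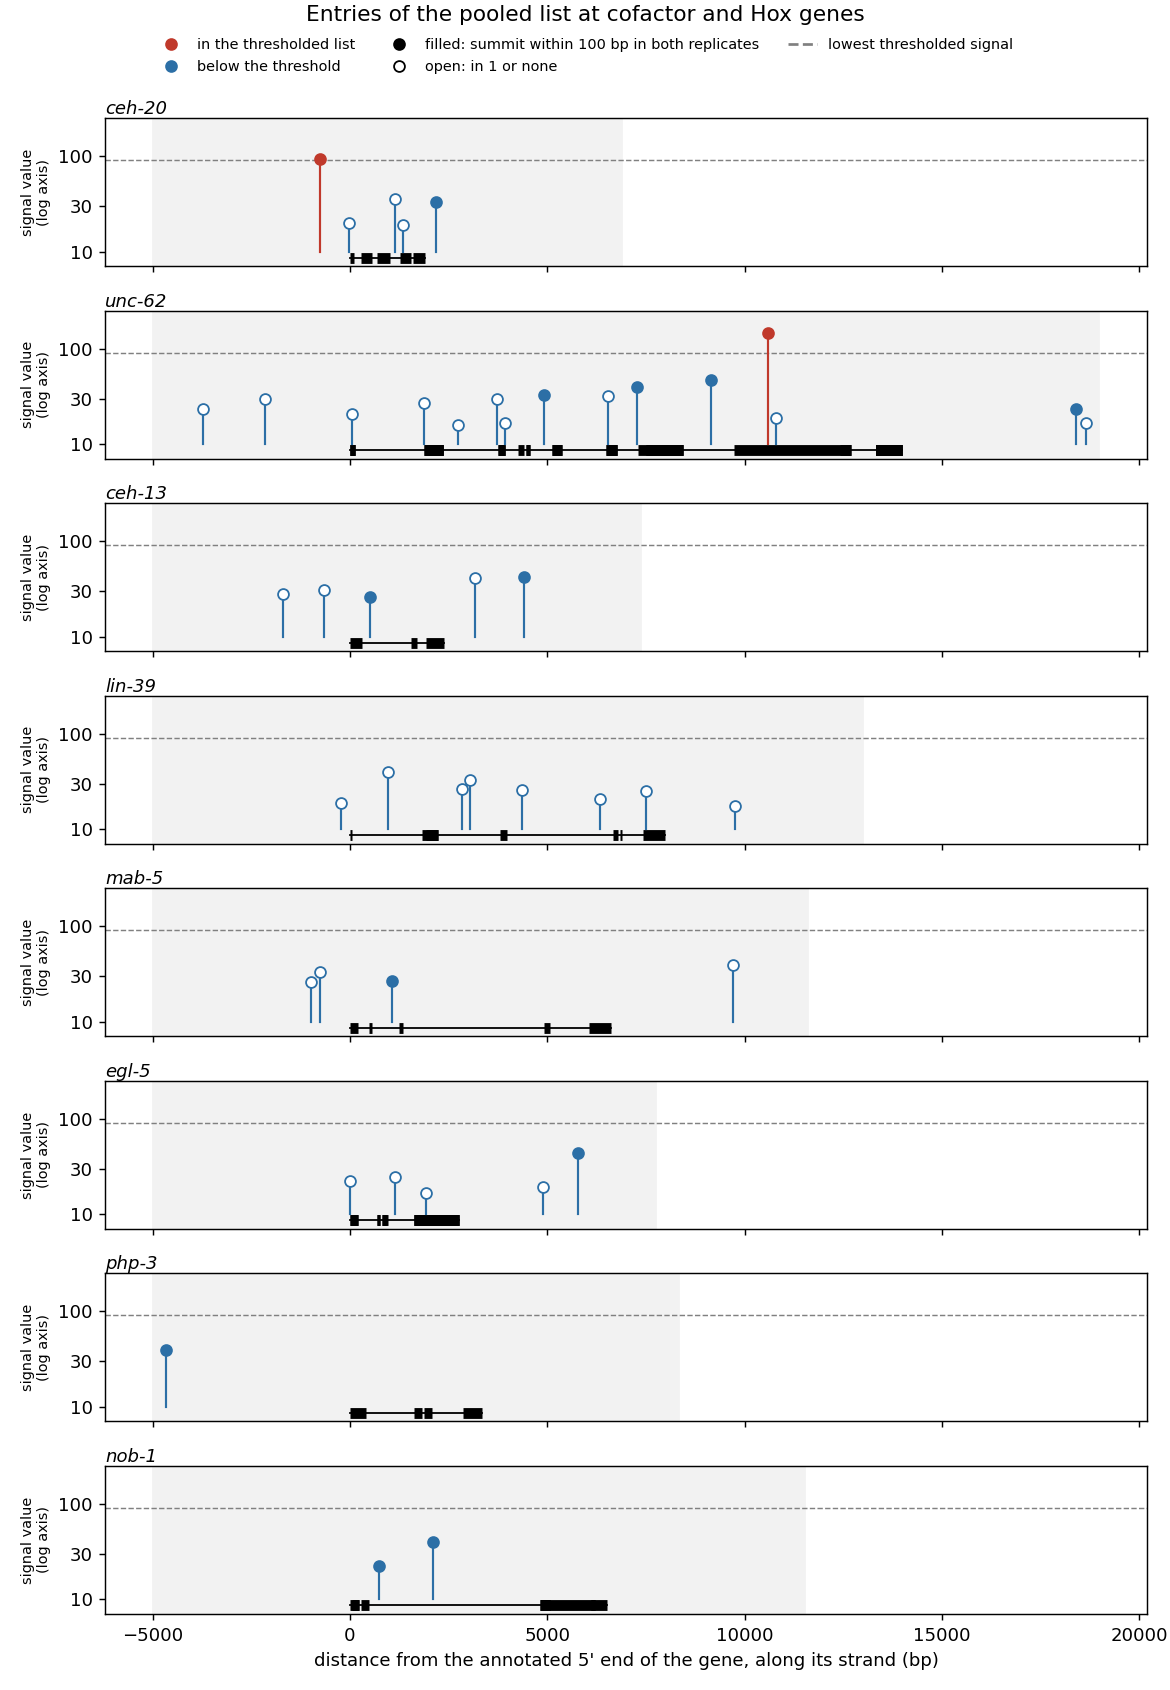
Entries of the pooled list at each gene, the cofactors above the Hox genes, with the distance of the summit from the annotated 5′ end of the gene in bp along its strand (x) and the authors' signal value on a log axis (y). Black boxes are exons of any annotated transcript, grey shading is the window of the gene span with 5000 bp on each side, and the dashed line is the lowest thresholded value of 91.0. The red points, at ceh-20 and unc-62, reach the line, and every Hox entry stays at 43.3 or below.

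The strongest entries of the 6 Hox genes were alike in strength and well below the threshold. Their pooled signal values lay between 39.5 at mab-5 and 43.3 at egl-5, and their ranks between 6789 and 5694. For comparison, 40.2% of protein-coding genes had a pooled entry that ranked at least as high as that of egl-5. The median of the strongest signal over the 6 Hox genes was 39.8, and over the 8 members it was 41.1. Among the 14826 protein-coding genes with any entry in the window the median was 46.9. The order egl-5, ceh-13, lin-39, nob-1 with php-3, and mab-5 in the pooled list is no firm order, since it was different in each replicate. In replicate 1 the best Hox rank was that of ceh-13 (4995), and in replicate 2 it was that of lin-39 (5888), while ceh-13 ranked 12782 there. With the 5000 bp flank, the ranks of cofactors and Hox genes did not overlap in any of the 3 lists. The pooled list was made from the 2 replicates, so the lists are not independent. Cofactor ranks ran from 723 to 2539 and Hox ranks from 4995 to 12782. With a flank of 10000 bp the pooled ranks did overlap, since lin-39 then had a peak at rank 216. In each list php-3 and nob-1 shared their strongest entry. A rank as high as that of ceh-20 in replicate 2 was reached by 24.1% of protein-coding genes, and that of ceh-13 in replicate 1 by 37.4%. Of protein-coding genes, 17.6% had an entry among the strongest 1631 of replicate 1 and 17.4% had one among the strongest 1631 of replicate 2. In replicate 1 these included both cofactors, and in replicate 2 unc-62 alone of the 8.

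**Figure D2:**
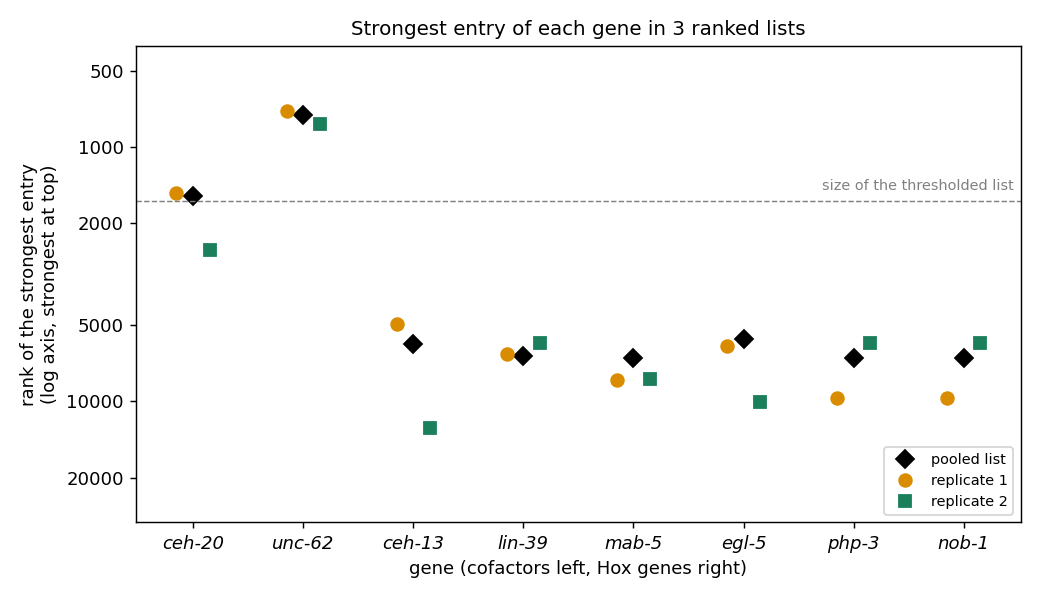
Rank of the strongest entry in each gene's window (y, log axis, strongest at the top) in the pooled list (diamonds), replicate 1 (circles) and replicate 2 (squares), with the cofactors left of the Hox genes. The dashed line marks rank 1631, the size of the thresholded list. All 3 ranks of unc-62 and 2 of the 3 of ceh-20 lie above it, and those of the Hox genes lie between 4995 and 12782.

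**Figure D3:**
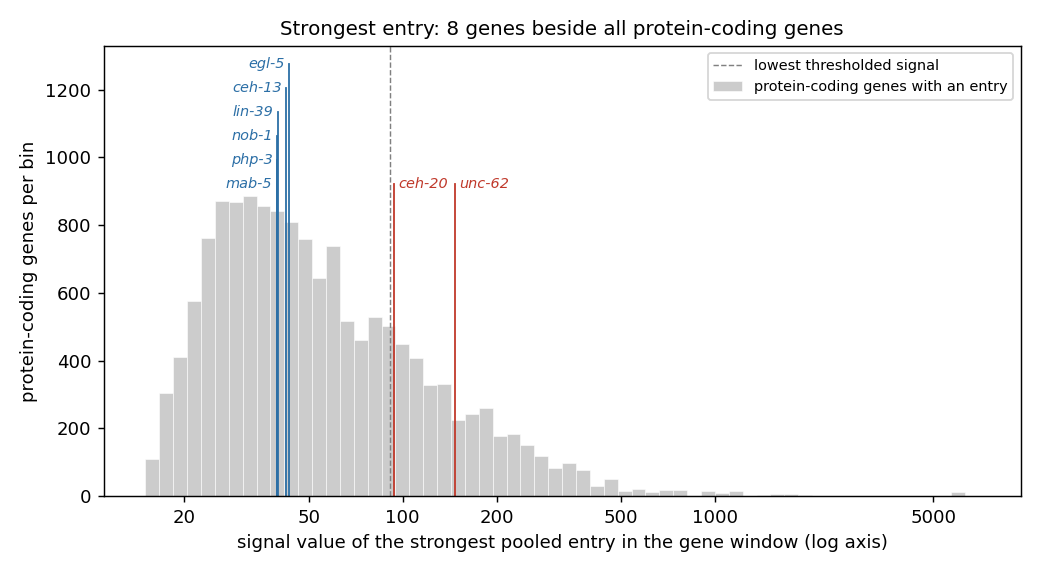
Signal value of the strongest pooled entry in the gene window (x, log axis) for the 8 genes (vertical lines, thresholded in red) and for all 14826 protein-coding genes with an entry (grey bars, genes per bin). The Hox genes sit together near 40, close to the middle of the distribution, with ceh-20 at 93.9 just past the dashed line at 91.0 and unc-62 at 147 beyond it.

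The anterior gene ceh-13, at III 7555660 to 7558041 on the plus strand, had 5 pooled entries. Its strongest was downstream of the gene, with the summit at 7560075, 4415 bp from the transcript start and 2097 bp upstream of lgc-12. The signal value there was 27.9 in replicate 1, 13.8 in replicate 2 and 42.3 in the pooled list, and the ranks of 4995 and 16359 in the replicates were far apart. The next, at 7558818 with 41.3, had 21.2 in replicate 1 and no summit within 100 bp in replicate 2. Upstream, summits lay 652 and 1694 bp before the transcript start, with pooled values of 30.6 and 27.7, each found in 1 replicate. The entry in the intron at 7556167, with 26.0, was found in both replicates, with 10.8 in replicate 1, at rank 28266 of 28366, and 13.0 in replicate 2.

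In the midbody gene lin-39, which directs vulval precursor cells, 5 of 8 pooled entries were intronic. It is transcribed from the minus strand, III 7528641 to 7536632. No entry had a summit within 100 bp in both replicates: 4 were found in replicate 1 and 3 in replicate 2. The strongest, at 7535667 with a pooled value of 39.8, lay in the first intron of the longer transcript, 965 bp past its start and 862 bp upstream of the start of the shorter one. The nearest summit in replicate 2 was 127 bp away with a value of 23.1, and in replicate 1 the nearest was 1605 bp away. The stretch of 100 bp to either side, chrIII:7535567-7535767 (ce11, plus strand), is shown because a T-box core lies near the summit. In capitals, in order, are GAGAGAGA, a match to TGATNNAT, GAGAGA and GGTGTG, the last with its centre 14 bp from the summit.
lin-39: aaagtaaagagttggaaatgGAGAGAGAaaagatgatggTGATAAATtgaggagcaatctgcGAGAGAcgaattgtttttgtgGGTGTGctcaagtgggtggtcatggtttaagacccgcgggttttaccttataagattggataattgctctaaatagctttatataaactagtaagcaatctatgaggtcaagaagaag
The entry nearest to the gene's 5′ end, just upstream with a pooled value of 19.0, lay over the noncoding RNA genes C07H6.12 and C07H6.16. Another intronic entry, at 7532283 with 25.5, lay inside C07H6.18, also noncoding.

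The gene mab-5, which guides migration of neuroblasts in the posterior body, had 4 pooled entries and occupies III 7776835 to 7783454, minus strand. The strongest, at 7773753 with 39.5, was 9701 bp downstream of the transcript start, inside the neighbouring protein-coding gene ZK686.1 and 311 bp from the start of that gene. Replicate 2 gave it 19.7, and the nearest summit in replicate 1 was 106 bp away with 14.3. In the mab-5 promoter, summits lay 752 and 977 bp upstream, with 33.2 and 26.0 in the pooled list. Both were found in replicate 1, with 21.9 and 20.2, while the nearest summit in replicate 2 was 861 and 1086 bp away. The intronic entry at 7782396 was found in both replicates, with 10.9, 12.3 and a pooled value of 26.9.

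The posterior gene egl-5, at III 7814374 to 7817141 on the plus strand, had 5 pooled entries, among them the strongest of any Hox gene. That entry had its summit at 7820162, 5788 bp from the gene's 5′ end and downstream of the gene, inside C27D11.2, a name given to a noncoding RNA gene on each strand. The signal value was 25.4 in replicate 1, 16.7 in replicate 2 and 43.3 in the pooled list, with ranks of 6093, 11462 and 5694. The bases up to 100 bp on either side, chrIII:7820062-7820262 (ce11, plus strand), are shown because this window also held a T-box core. GAGAGA and GGTGTG are in capitals, the second centred 46 bp from the summit.
egl-5: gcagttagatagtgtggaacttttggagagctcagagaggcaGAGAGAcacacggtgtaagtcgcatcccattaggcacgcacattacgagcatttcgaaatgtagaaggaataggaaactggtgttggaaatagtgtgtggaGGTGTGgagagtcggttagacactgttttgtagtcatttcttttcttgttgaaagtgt
An entry at the very 5′ end of egl-5, with its summit at 7814375, had 22.5 in the pooled list, ranked 19114 and had no summit within 100 bp in either replicate.

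The paralogous posterior genes php-3 and nob-1 lie in tandem on the minus strand, 236 bp apart, and had the fewest entries in the pooled list but not in replicate 2. At php-3 (III 12074218 to 12077556) the only pooled entry was 4662 bp upstream, and at nob-1 (III 12077793 to 12084316) there were 2. The php-3 entry was one of those 2: its summit at 12082218 lay in an intron of nob-1, 2098 bp past the 5′ end of that gene. It had 20.2 in replicate 1, 23.1 in replicate 2 and 39.7 in the pooled list, at ranks 9751, 5907 and 6743. The other nob-1 entry, at 12083590 with 22.3, lay in the same intron and was found in both replicates, with 14.4 and 10.4. No pooled entry lay in a promoter window of either gene. In the pooled list php-3 had 0.750 and nob-1 1.21 entries per 10 kb, while the median over all protein-coding genes was 2.40, and 74.2% and 64.7% of these genes had as many entries or more. The low density was not repeated in replicate 2, where php-3 had 5 entries and nob-1 had 6, or 3.75 and 3.63 per 10 kb, and egl-5 had the fewest with 3. In replicate 1 there were 2 at php-3 and 3 at nob-1, as many as the 3 at egl-5.

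The intervals between lin-39 and ceh-13 and between mab-5 and egl-5 held no thresholded summit. Between lin-39 and ceh-13, which are transcribed away from each other, 19.0 kb held 4 pooled entries, the strongest at III 7549083 with 17.6 in replicate 1, 10.5 in replicate 2 and 35.9 in the pooled list. Between mab-5 and egl-5, 30.9 kb with 1 other protein-coding gene (cyk-7) held 2 pooled entries, both within 1000 bp upstream of mab-5. That is 2.10 and 0.647 entries per 10 kb in the pooled list, where the median over gene windows was 2.40. Those windows hold the genes themselves, so this median is no matched baseline for intervals between genes. The replicate lists held 4 and 6 entries between lin-39 and ceh-13, and 4 and 5 between mab-5 and egl-5, so the mab-5 to egl-5 interval was less sparse there. The interval between them, 219 kb between ceh-13 and mab-5 with 38 other protein-coding genes, held 81 pooled entries, or 3.70 per 10 kb, and 1 thresholded summit with a signal value of 136. The nearest thresholded summit to lin-39 was 7.81 kb from the gene, at III 7520833 with a signal value of 279.7, and lay 12 bp from the start of cux-7. From ceh-13 the nearest was the summit of 136 in the 219 kb interval, 12.4 kb away with R13A5.7 as its nearest gene start, and from egl-5 and mab-5 it was the peak at rpl-35, 37.5 and 71.2 kb away. For php-3 and nob-1 it was 128 and 131 kb away.

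Agreement between replicates at these genes was like that of other weak entries. Of the 44 entries, 13 had a summit within 100 bp in both replicate lists, 15 in replicate 1 alone, 10 in replicate 2 alone and 6 in neither. For entries below the threshold this was 11 of 42 (26.2%), whereas 28.4% of all nuclear pooled entries below the threshold did so, and 96.0% of thresholded entries. Among the 24 Hox entries, 6 were found in both. By position, 16 of the 44 summits were intronic, 9 upstream, 9 downstream, 6 in coding exons and 4, the unc-62 peak among them, in exons that were untranslated, where an exon of any transcript counted before an intron and a place inside a member before the flank of another. At Hox genes, 10 of 24 were intronic and 6 lay in a promoter window of the gene. In promoter windows of any protein-coding gene lay 19 of the 44 entries (43.2%) and 7 of the 24 Hox entries (29.2%). Of all nuclear pooled entries below the threshold, 30.1% did. The 19 include 8 unc-62 entries in that gene's own promoter windows, which cover 36.1% of its window. The 44 include the 2 thresholded peaks, and the 30.1% includes no thresholded entry.

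The sequences searched were the T-box core GGTGTG and its longer form GGTGTGA, which contains it, the Hox and PBC form TGATNNAT, the MEIS form TGACAG and the repeat GAGAGA, on both strands and within 100 bp of the summit. The T-box core was in 3 of 44 windows (6.82%), 1 each at lin-39, egl-5 and ceh-20, and neither thresholded summit was among them. Over all thresholded nuclear summits it was in 7.58% and over all nuclear pooled summits in 6.02%. GGTGTGA was in none of the 44, and in 0.994% of thresholded and 1.61% of pooled windows. TGATNNAT was in 13 windows (29.5%), against 8.20% of thresholded and 13.7% of pooled windows. By gene these were 6 windows at lin-39, 3 at unc-62, 2 at ceh-13 and 2 at mab-5. TGACAG was in 6 windows (13.6%), against 7.21% and 7.20%, and GAGAGA in 15 (34.1%), against 42.1% and 18.4%. The median GC content was 39.1% in the members' windows, 45.8% in thresholded and 38.8% in pooled windows, and its part in these shares was not tested. Windows at neighbouring summits of 1 gene can overlap, and a match is a string of letters, not a bound site.

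Other genes of Hox pathways were counted in the same way, beside the share of 17.7% over all protein-coding genes. Of 9 chromatin regulators of Hox genes, 4 had a thresholded summit in the window: lin-59, a histone methyltransferase gene, egl-27, a gene for a NuRD-related protein, and sor-1 and sor-3, which keep Hox genes silent. At lin-59 its only summit lay 557 bp upstream of the start, with 117 in replicate 1, 135 in replicate 2 and 252 in the pooled list. The egl-27 window held 5 thresholded summits, of which the strongest, with 127, 125 and 249.7, was intronic and 412 bp past one of its transcript starts. At sor-1 the stronger of 2 lay 490 bp upstream with 118, 108 and 215, and at sor-3 286 bp upstream with 108, 76.8 and 187. Of 22 genes of the Wnt pathway, which sets Hox expression in several lineages, 3 had such a summit. Only that of mig-5, a Dishevelled gene, was in the gene's own promoter window, 175 bp upstream with 177 in replicate 1, 172 in replicate 2 and 348 in the pooled list, while the strongest of 2 summits each near sys-1 and gsk-3 had the starts of eif-3.C and Y18D10A.4 as their nearest. None of the 3 other PBC and MEIS class genes (ceh-40, ceh-60 and psa-3) had one, nor any of 10 regulators and targets of Hox genes, among them hlh-8, egl-18 and pal-1.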

How the data were processed

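Anti-GFP ChIP-seq peak lists of 2 biological replicates (1 group) were used. The authors deposited ce11 narrowPeak lists, named in the deposited readme as input for the irreproducible discovery rate, for each replicate and for both pooled, and 1 thresholded list. No aligner, peak caller or version is named in what was used here. Column 7 of the deposited lists is the caller's signal value and column 9 is the −log10 q value by the narrowPeak format, which was 2.76 in every thresholded entry and was not used to rank. Values were not scaled between lists. All 1631 thresholded entries were pooled ranks 1 to 1631. Read depth is unknown. The lists on build ce10, a thresholded one among them, were not used, since coordinates were not converted between builds. Peaks called there at the Hox and cofactor genes were not examined.

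Genes came from the Ensembl release 115 annotation of WBcel235 (the ce11 assembly) and sequences from the RefSeq copy of that assembly. All 8 members and all 44 genes of the other lists matched by symbol, and 0 entries ran past a chromosome end. An entry was assigned by its summit to a gene span with 5000 bp on each side. Counting was done with Python 3.11.15 and pandas 2.3.3 and checked on simulated intervals and sequences. Since members share 1 group of 2 replicates, no test was run. Named are the 8 members and, from each other list, up to 4 genes with a thresholded summit, with some genes that had none. Members and lists were chosen with earlier results of these data known.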

Additional observations from a re-analysis of the deposited data

How the results depend on the processing

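With a flank of 2000 bp and with any overlap of the interval, the same 2 cofactor genes and no Hox gene had a peak. The same genes had an entry among the strongest 1631 of replicate 1. They also had one among all 2619 pooled entries that share the top −log10 q value (chosen after seeing the data). With promoter windows alone 1 gene had a peak (ceh-20), and with the strongest 815 thresholded peaks 1 did (unc-62), with 1 peak in each case. Leaving out 1 replicate in turn gave 1 to 2 genes and 1 to 2 entries. Here the strongest 1631 entries of the other replicate stood in for the thresholded list, with no selection on reproducibility. The lower count came without replicate 1, where ceh-20, at rank 2539 in replicate 2, fell outside that cut. With a flank of 10000 bp lin-39 joined them with 2 peaks, the nearer at cux-7, and the windows held 4 peaks and 69 pooled entries. The peak at cux-7 had pooled rank 216, above those of unc-62 (748) and ceh-20 (1558). The gap in rank between cofactors and Hox genes was therefore lost at this flank. Also chosen after seeing the data, a flank of 50000 bp gave 8 peaks at 5 members, now with ceh-13, lin-39 and egl-5, where 68.3% of protein-coding genes had one, and the lin-39 to ceh-13 and mab-5 to egl-5 intervals gave 0. The share over all protein-coding genes was 11% with a flank of 2000 bp, 26.7% with 10000 bp, 5.41% with promoter windows, 9.69% with the strongest 815, 19.7% among genes with a span in the members' range and 17.4 to 17.6% with 1 replicate. The median rank of the strongest member entry was 6322. It was 6672 with a flank of 2000 bp, where php-3 had no entry, and 5907 to 6315 with 1 replicate. Of the 44 pooled entries, 13 were found in both replicates, 23 with summits within 200 bp and 28 with any overlap. Within 200 bp of the summit the T-box core was in 10 member windows (22.7%), 3 of them at Hox genes, against 14.1% of thresholded and 11.1% of pooled windows. GGTGTGA was in 5 (11.4%), 0 at Hox genes, against 2.61% and 3.29%. Windows this wide at neighbouring summits of 1 gene can overlap, so 1 match can be counted in more than 1 window. Of the genes of the other lists, 4 had a peak in promoter windows and 7 in the wider ones. Of 23 recomputed ranks of single genes, 12 moved by less than 1 SD of the ranks in the 2 replicates. That SD came from replicate ranks that are themselves among the 23, so the count does not measure how stable the ranks are. The egl-5 rank was 16887 with a flank of 2000 bp, since its strongest entry is farther out. Whole worms at 1 stage were measured, so a missing peak does not show that TBX-2 leaves a gene unbound in some cells.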
